A study of Mus musculus with 24 samples.

Results

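Transcripts of liver-type secreted proteins and of the Mup genes were followed in 24 libraries labelled as brown fat, and 42 genes were described out of 12615 in the count table. The members were the 22 genes whose symbol is Mup followed by a number, together with 20 listed hepatocyte genes, and all of them were present and passed the filter on low counts. The groups were 6 mice each of the Ucp1CreERT2 negative genotype (Cre-) and the Ucp1CreERT2 positive genotype (BATdKO), held at 30°C for 4 days or at 8°C for 6 days after a stepwise cooling from a rearing temperature of 22°C. Every mouse carried both floxed alleles, named TBRL1f/f;TBL1f/f in the labels, was labelled female and received tamoxifen, given at an age the labels state as 5 years, 3 weeks before the temperature protocol. Cre was driven by the Ucp1 promoter and induced by tamoxifen, so recombination was limited to cells in which that promoter was active. Genotypes are given as labelled throughout. The assay was QuantSeq 3′ sequencing, which gives 1 tag near the end of a transcript, so the depth-scaled counts (CPM, with edgeR's TMM factors between libraries) can be compared between genes without a correction for length. The tissue was bulk, so fewer cells of a type and less RNA per cell cannot be told apart.

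Hepatocytes secrete most plasma proteins, among them albumin, apolipoproteins, fibrinogen, serine protease inhibitors and the carriers of thyroid hormone, haem and iron. Major urinary proteins, encoded by the Mup cluster, are lipocalins made in mouse liver, passed through the blood into urine and used as pheromone carriers. Their liver expression is under growth hormone control and is higher in male than in female mice. Brown fat is not known as a main site of synthesis for most of these proteins, although fat cells also express Trf, Hp and Cyp2e1.

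The regions before the start of 6 listed genes, which fell on both sides of a split in co-variation described further on, are shown. They were taken from RefSeq on GRCm38.p6, as the 250 bases before the annotated start in the direction of transcription, and the capitals mark the letters GTTAAT or their reverse complement ATTAAC, one side of the palindrome that the hepatocyte factor HNF1 is known to bind. 
Alb (chr5:90460620-90460869, plus strand): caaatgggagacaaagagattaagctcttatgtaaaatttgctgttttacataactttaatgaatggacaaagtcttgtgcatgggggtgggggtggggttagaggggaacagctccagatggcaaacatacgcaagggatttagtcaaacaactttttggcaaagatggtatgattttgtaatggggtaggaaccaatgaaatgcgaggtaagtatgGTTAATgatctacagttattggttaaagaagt
Fabp1 (chr6:71199629-71199878, plus strand): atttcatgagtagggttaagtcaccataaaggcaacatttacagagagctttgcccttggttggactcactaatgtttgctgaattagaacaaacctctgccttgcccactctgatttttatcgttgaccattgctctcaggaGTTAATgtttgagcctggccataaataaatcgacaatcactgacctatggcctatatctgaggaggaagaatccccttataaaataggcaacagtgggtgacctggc
Fga (chr3:83025903-83026152, plus strand): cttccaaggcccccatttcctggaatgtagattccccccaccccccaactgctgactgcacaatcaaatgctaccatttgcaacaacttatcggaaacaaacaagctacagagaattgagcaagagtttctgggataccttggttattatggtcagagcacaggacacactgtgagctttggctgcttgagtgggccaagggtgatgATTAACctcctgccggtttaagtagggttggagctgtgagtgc
Fgb (chr3:83049864-83050113, minus strand): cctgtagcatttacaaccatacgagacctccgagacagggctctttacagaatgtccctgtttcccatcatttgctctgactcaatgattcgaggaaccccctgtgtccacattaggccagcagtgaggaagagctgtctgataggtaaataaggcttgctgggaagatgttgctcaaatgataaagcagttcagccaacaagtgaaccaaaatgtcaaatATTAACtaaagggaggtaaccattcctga
Serpina1a (chr12:103863620-103863869, minus strand): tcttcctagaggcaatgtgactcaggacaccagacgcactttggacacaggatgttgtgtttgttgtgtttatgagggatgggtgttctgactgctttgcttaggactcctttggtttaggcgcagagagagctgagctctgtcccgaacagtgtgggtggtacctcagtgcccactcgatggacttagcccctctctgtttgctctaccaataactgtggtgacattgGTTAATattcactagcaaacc
Apoa1 (chr9:46228380-46228629, plus strand): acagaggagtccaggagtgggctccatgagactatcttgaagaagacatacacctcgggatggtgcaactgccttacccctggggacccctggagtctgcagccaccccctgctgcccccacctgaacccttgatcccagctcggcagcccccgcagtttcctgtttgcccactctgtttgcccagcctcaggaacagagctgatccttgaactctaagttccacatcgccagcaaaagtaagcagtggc
These letters were present on either strand in 2113 of 32851 promoters of the same length, or 6.43%. Of the 14 listed genes with an entry, 5 held them (Alb, Fabp1, Fga, Fgb and Serpina1a). None of the 14 Mup genes with an entry did. The regions shown are those of the 5 listed genes that held the letters and of Apoa1, which did not. They therefore overstate how often listed genes held these letters. A match of 6 letters is a description of the window and not a binding site.

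Before any group was compared, the libraries were checked against their labels. Library totals ran from 699703 to 11527643 counts with a median of 6644365. The 3′ tags of Tbl1x and Tbl1xr1, the floxed genes, were higher in the libraries labelled BATdKO than in those labelled Cre-, with log2 differences at 8°C of 0.39 (SE 0.10, edgeR adjusted p = 0.0633) and 0.93 (SE 0.17, edgeR adjusted p = 0.00349). Tags outside a deleted exon do not check a deletion, and which exons are floxed is not given in the sources used here. At 30°C the library of mouse 6 in each genotype lay with the other label, at 38.6 CPM of Tbl1xr1 for Cre- against 17.0 CPM for BATdKO. Library identifiers ran in separate blocks for the temperatures, so that block and temperature cannot be told apart.

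The brown fat label was compared with a list of 12 markers, not all of them particular to brown fat. They were Ucp1, Cidea, Dio2, Elovl3, Ppargc1a, Prdm16, Adrb3, Adipoq, Plin1, Fabp4, Cidec and Pparg. The 12 brown adipocyte markers together took between 0.0811% and 0.498% of counts. Ucp1, the uncoupling protein of brown fat, ranged at 30°C from 28.9 to 548 CPM in Cre- (median 130, n = 6) and from 84.7 to 412 CPM in BATdKO (median 314, n = 6). At 8°C it ranged from 968 to 2076 CPM in Cre- (median 1516) and from 1331 to 2029 CPM in BATdKO (median 1768). Brown fat markers were thus present and Ucp1 was higher at 8°C, with log2 differences of 3.10 (SE 0.44, edgeR adjusted p = 2.67e-05) in Cre- and 2.54 (SE 0.43, edgeR adjusted p = 0.000389) in BATdKO, yet the listed liver genes alone exceeded the brown adipocyte markers by 7.44 to 69.4 times in all 24 libraries. Not every marker moved with Ucp1. With cold, 11 of the 12 had a log2 difference above 0 in Cre- and 8 in BATdKO. At an edgeR adjusted p under 0.1, 4 were called higher and 1 lower in each genotype, beside 9.15% and 7.07% of all genes called. Mean Adipoq was 226 CPM at 30°C and 154 CPM at 8°C in Cre-, and 210 and 111 CPM in BATdKO.

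The 42 members took a median of 18.3% of all counts, with a range from 14.6% to 22.2% and a coefficient of variation over libraries (CV, SD over mean) of 11.1%. In the shallowest library, Cre- 30C mouse 4, Mup14 alone took 1.474% of counts with a 95% Wilson interval from 1.446% to 1.502%. The intervals cover counting error only and not the spread between mice. The 20 listed genes took 3.70% to 5.77% of counts. The 22 Mup genes added 10.9% to 16.5%, but this sum may count a read more than once, as described with the Mup genes. Without Trf, Hp and Cyp2e1, which fat cells also express, the median share was 17.8%.

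By group, the members' share ranged from 17.7% to 22.2% in Cre- 30C (median 20.2%, n = 6) and from 15.3% to 20.8% in BATdKO 30C (median 19.1%, n = 6). In the cold it ranged from 15.4% to 20.3% in Cre- 8C (median 17.4%, n = 6) and from 14.6% to 20.2% in BATdKO 8C (median 17.7%, n = 6). The ranges of all 4 groups overlapped. The share was given no test, because the members were picked with results of these data known.

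**Figure D1:**
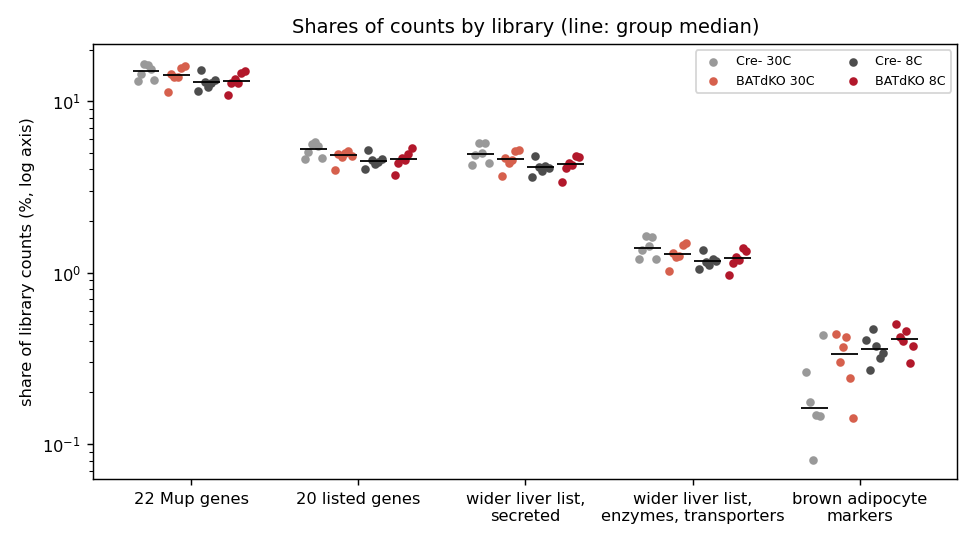
Share of library counts in percent, on a log axis, for the Mup genes, the 20 listed genes, further liver genes and brown adipocyte markers; each point is 1 library, colours mark the groups and lines are group medians (n = 6). The listed genes sit between 3.70% and 5.77% in every group, above the brown adipocyte markers at 0.0811% to 0.498%.

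Among the carriers and apolipoproteins, Alb, which encodes albumin, was the most abundant listed gene at 10452 ± 1905 CPM (SD, n = 24) and ranked at 17 of 12615 genes. Its range was 8579 to 14393 CPM in Cre- 30C (median 9712), 5686 to 12127 CPM in BATdKO 30C (median 9444), 8826 to 11937 CPM in Cre- 8C (median 11227) and 9449 to 14273 CPM in BATdKO 8C (median 11134). The group ranges overlapped, and the lowest library was BATdKO 30C mouse 6, whose Alb share was 0.633% (95% Wilson interval from 0.627% to 0.640%). Alb counts exceeded Ucp1 counts in 24 of 24 libraries, by 5.13 to 302 times.

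Ttr, the thyroid hormone and retinol-binding protein carrier transthyretin, stood at 6388 ± 642 CPM (SD, n = 24). Apoa1, the main protein of high-density lipoprotein, stood at 4405 ± 481 CPM, and Apoa2, its partner in the same particle, at 3298 ± 392 CPM. Apoc3, an inhibitor of lipoprotein lipase, was lower at 1298 ± 135 CPM, and Apoh, a phospholipid-binding plasma protein, lower again at 453 ± 41.1 CPM. The ratio of Apoa2 to Apoa1 counts varied little, from 0.708 to 0.787 over the 24 libraries. Apoa1 itself ranged from 3690 to 5042 CPM in Cre- 30C (median 4424) and from 3459 to 5395 CPM in BATdKO 30C (median 4437). In the cold it ranged from 3872 to 4756 CPM in Cre- 8C (median 4150) and from 3971 to 5083 CPM in BATdKO 8C (median 4533), again overlapping.

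The carriers of iron, haem and haemoglobin were Trf (transferrin) at 3050 ± 240 CPM, Hpx (hemopexin) at 1053 ± 130 CPM and Hp (haptoglobin) at 913 ± 113 CPM (SD, n = 24). Ahsg, the mineral-binding fetuin-A, stood at 4035 ± 396 CPM and Ambp, the precursor of alpha-1-microglobulin and bikunin, at 1096 ± 133 CPM. Trf had the lowest CV of all members, 7.85%.

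The clotting proteins and protease inhibitors followed. The fibrinogen chains Fgb, Fga and Fgg stood at 2133 ± 271, 543 ± 71.3 and 509 ± 44.9 CPM (SD, n = 24). Fga tags made up between 0.240 and 0.265 of Fgb tags. The ratio of Fgg to Fgb was 0.222 to 0.359, with the highest value in BATdKO 30C mouse 6. Serpina3k, a kallikrein inhibitor, stood at 2928 ± 345 CPM, Serpina1a, an alpha-1-antitrypsin gene, at 2546 ± 311 CPM and Serpinc1 (antithrombin) at 327 ± 33.3 CPM. Serpina1a shared 56.6% of the 50-base words in its last 300 transcript bases with another gene, so that its count cannot be fully separated from its paralogs.

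The members that act inside the hepatocyte were present as well. Fabp1, the liver fatty acid binding protein, stood at 1039 ± 194 CPM (SD, n = 24) and Cyp2e1, a microsomal ethanol-oxidising cytochrome P450, at 811 ± 180 CPM. Cps1, the first enzyme of the urea cycle, stood at 207 ± 25.6 CPM. Fabp1 counts followed Alb counts closely, at 0.0891 to 0.111 of them in every library. In Cyp2e1, 33.9% of the 50-base words at the transcript end were shared with another gene.

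The Mup genes lie between positions 59956804 and 62150863 of chromosome 4 (GRCm38, GENCODE). Mup14 was the highest at 12427 ± 1041 CPM (SD, n = 24), ahead of Mup22 at 11800, Mup13 at 10805, Mup10 at 10712 and Mup7 at 9836 CPM. Mup19 (9721), Mup11 (9169), Mup18 (8392), Mup2 (7266), Mup9 (6900), Mup1 (6624), Mup8 (6501), Mup17 (6206), Mup16 (6141), Mup15 (5289) and Mup12 (4611 CPM on average) completed the 16 most abundant Mup genes. Mup20 and Mup3 stood at 2950 and 2040 CPM, while Mup21, Mup4, Mup5 and Mup6 stood at 122, 50.6, 49.8 and 43.3 CPM.

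The Mup rows could not be read as separate genes. In 10 of the 22, every 50-base word in the last 300 transcript bases occurred in another gene, and in 16 of the 22 more than 40% of them did. The shared fraction was low for Mup6 (0%), Mup3 (6.38%), Mup20 (8.77%) and Mup21 (17.9%). The difference between the counts of each pair of rows was compared with what independent counting of proportional rows would give, an index expected at 1. The index was 0.138 for Mup4 and Mup5, although only 25.9% and 35.5% of their end words were shared. For Mup6, with 0% shared, it was 1.215 with Mup5. Of 231 Mup pairs 2 lay below 1, while 0 of 190 pairs of listed genes did. The lowest value among listed genes was 1.31 for Fgg and Apoh. Reads may therefore enter more than 1 Mup row, and the sum over the rows can exceed the number of reads. Mup14 alone took 0.976% to 1.498% of counts. A further 16 pseudogene rows named Mup-ps, which are no members, took 0.529% to 1.03%.

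Mup20, the pheromone darcin known from male mice, can be told from most of the cluster by its transcript end. It ranged from 2434 to 3416 CPM in Cre- 30C (median 2992) and from 2377 to 3019 CPM in BATdKO 30C (median 2876). In the cold it ranged from 2669 to 3234 CPM in Cre- 8C (median 2894) and from 2777 to 3467 CPM in BATdKO 8C (median 3101). The groups overlapped and no library was low, although all mice were labelled female in the sample records.

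Sex-linked genes were therefore read in the same libraries, a choice made after their values had been seen. The Y-linked genes Ddx3y, Eif2s3y, Uty and Kdm5d together gave 35 to 507 counts per library, or 35.4 to 56.9 CPM, in all 24. Xist, the RNA of the inactive X chromosome, gave 26 to 638 counts, or 20.5 to 50.2 CPM, in the same 24. Each library thus held counts of Y-linked genes and of Xist, against a label that gives females only. The paper describes the sequenced mice as males. The source of these counts was not tested. Liver genes known to be higher in male mice were present in all 24, from Cyp2d9 at 624 ± 75.9 and Cyp4a12a at 277 ± 35.2 CPM to Cyp7b1 at 42.3 ± 4.62 CPM (SD, n = 24) and Hsd3b5 at a mean of 38.5 CPM, with C6 and Slco1a1 at 147 and 126 CPM. Liver genes known to be higher in female mice were low, with Cyp2b9 at 6.25 ± 1.45 CPM and Cyp2b13, Cyp3a41a, Cyp3a44, Sult2a1 and A1bg each under 0.55 CPM on average.

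Across the 24 libraries the share of Mup14 was higher where that of the Y-linked genes was higher and lower where that of the brown adipocyte markers was higher. All shares have the library total as a common denominator. Pearson's r of the Mup14 share was 0.86 with the summed share of the 4 Y-linked genes (permutation p = 1e-05, the smallest 100000 resamples can give, adjusted p = 1.5e-05 over 3 relations) and Spearman's rho was 0.89 (permutation p = 1e-05). Within 30°C and within 8°C r was 0.82 and 0.85, and it was 0.85 without the 2 libraries farthest from the median. With the brown adipocyte markers r was -0.82 (permutation p = 1e-05, adjusted p = 1.5e-05) and rho was -0.82 (permutation p = 1e-05). This r was -0.85 within 30°C and -0.67 within 8°C, and -0.76 without the 2 farthest libraries. Within 8°C it was -0.39 once the 2 farthest libraries were left out, so that there the relation rests on those libraries. With Xist r was -0.15 over all libraries (permutation p = 0.477, adjusted p = 0.477; rho -0.057, permutation p = 0.789), 0.057 without the 2 farthest, -0.55 within 30°C (permutation p = 0.0629) and -0.72 within 8°C (permutation p = 0.00922, adjusted p = 0.0138), and the 30°C value was -0.057 without its 2 farthest libraries. The scale mattered: on log2 of the TMM-scaled CPM plus 1 for these genes, and given as a description, r with Mup14 was -0.72 for Xist, 0.75 for the sum of the Y-linked genes, 0.70 for Ddx3y, 0.24 for Eif2s3y, 0.39 for Uty and -0.026 for Kdm5d over the 24 libraries.

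**Figure D2:**
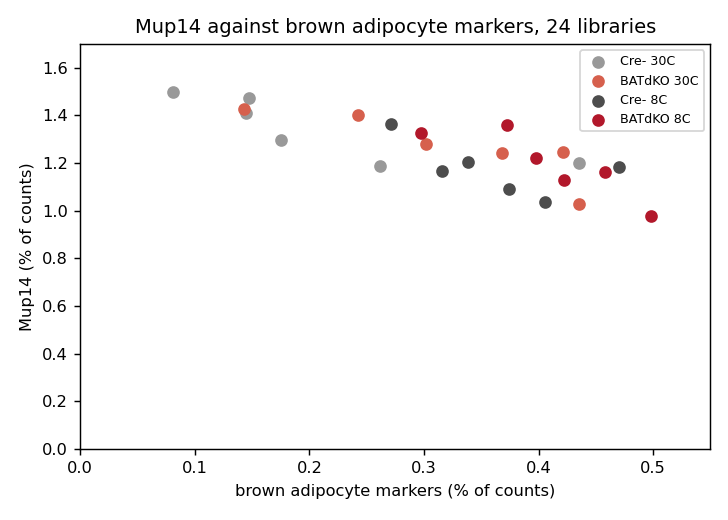
Share of Mup14 against the summed share of 12 brown adipocyte markers, both in percent of library counts; each point is 1 of 24 libraries, coloured by group. Libraries with fewer brown adipocyte counts had a higher Mup14 share (r -0.82), which ran from 0.976% to 1.498%.

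The members varied less between libraries than most genes did. Their median CV over the 24 libraries was 10.3%, against 21.0% for the 12485 genes tested and 11.8% for the 2110 genes at least as abundant as the lowest member. Those 2110 genes are not matched in abundance to the members, most of which lie far above the lowest. The CV was under the all-gene median for 39 of 42 members, and the exceptions were Mup5 (22.4%), Mup6 (27.5%) and Cyp2e1 (22.1%). The replicate spread within groups, given as edgeR's biological coefficient of variation, lay below the trend for genes of the same abundance in 36 of 42 members, beside 75.7% of all genes tested. It was above the trend for Alb (0.183 against a trend of 0.171), Fabp1, Cyp2e1, Mup4, Mup5 and Mup6.

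Genotype and temperature were then compared with edgeR's quasi-likelihood test over all genes and an adjusted p threshold of 0.1. None of the 42 members passed it in any of 5 contrasts. For BATdKO against Cre- at 8°C, 1.82% of all genes passed (227 of 12485). The shares over all genes were 0% for genotype at 30°C, 9.15% for cold in Cre- (1143 genes), 7.07% for cold in BATdKO (883 genes) and 0.0961% for the difference between the cold effects (12 genes). At an unadjusted p under 0.05, 1 member passed for genotype at 8°C, 1 at 30°C, 0 for cold in Cre-, 7 for cold in BATdKO and 1 for the difference, beside 9.24%, 10.4%, 18.6%, 17.2% and 8.05% of all genes. Split by direction, genes higher and lower were 0.697% and 1.12% for genotype at 8°C, 5.57% and 3.59% for cold in Cre-, 3.76% and 3.31% for cold in BATdKO, and 0.0561% and 0.0400% for the difference. DESeq2 called 1 member, Hp, for genotype at 8°C (2.07% of all genes) and 0 for genotype at 30°C (0.713%), cold in Cre- (9.06%), cold in BATdKO (7.17%) and the difference (0.404%). A fit to only the 2 groups compared also called Hp for genotype at 8°C (4.01% of genes) and 0 members for genotype at 30°C (0%), cold in Cre- (7.66%) and cold in BATdKO (7.44%).

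The members' log2 fold changes for genotype at 8°C ran from 0.04 to 0.28 with a median of 0.10, beside a median of 0.00 for all genes, and the median SE of a member was 0.089. All 42 were above 0 there, but the members vary together over libraries and are not separate observations. For genotype at 30°C the range was -0.23 to 0.30 (median -0.04) and for cold in Cre- it was -0.16 to 0.06 (median -0.03). For cold in BATdKO it was -0.17 to 0.39 (median 0.10), and for the difference between the cold effects -0.11 to 0.40 (median 0.14). The sign of 2 of these medians turned when 1 library was left out, to 0.0039 for genotype at 30°C without BATdKO 30C mouse 1 and to 0.0053 for cold in Cre- without Cre- 30C mouse 4. Cold in Cre- had -0.09 without Cre- 30C mouse 1, genotype at 30°C had -0.09 without Cre- 30C mouse 1, and without BATdKO 30C mouse 1 cold in BATdKO had 0.05 and the difference 0.09. The fold changes rest on TMM-scaled counts and differ from shares of raw counts. The members' mean share was 20.05% in Cre- 30C and 17.47% in Cre- 8C, and 18.89% in BATdKO 30C and 17.83% in BATdKO 8C. For Alb in Cre-, the mean share was 1.115% at 30°C and 1.039% at 8°C, while its mean CPM was 10355 and 10805. The small fold changes with cold thus depend on the scaling, and no fit used raw totals.

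**Figure D3:**
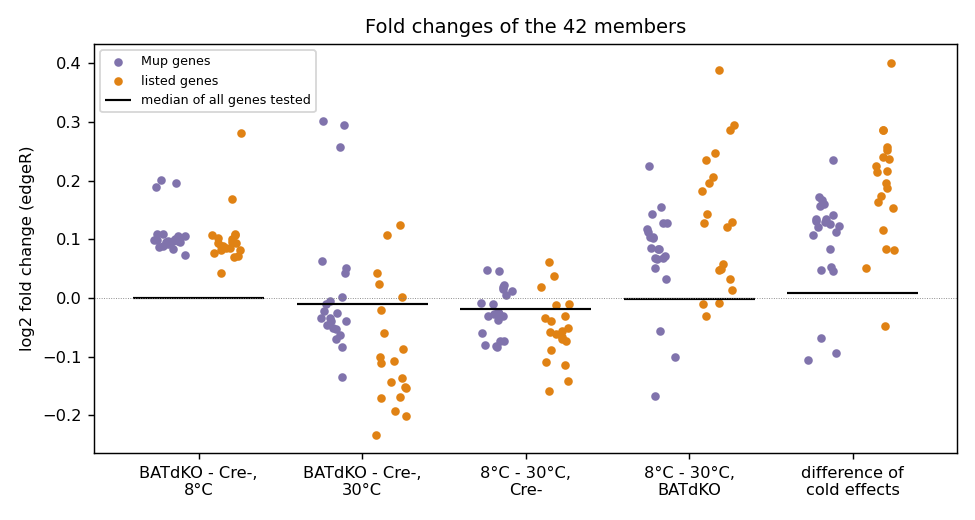
Log2 fold changes from edgeR for the 22 Mup genes and the 20 listed genes in 5 contrasts; each point is 1 gene and the black line is the median of all genes tested. All points lie between -0.23 and 0.40 and 0 of 42 passed the adjusted threshold in any contrast.

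Hp was nearest to a call. At 8°C it ranged from 754 to 901 CPM in Cre- (median 798, n = 6) and from 890 to 1071 CPM in BATdKO (median 993, n = 6), so that the groups overlapped only between 890 and 901 CPM. The log2 difference was 0.28 (SE 0.087, edgeR adjusted p = 0.145), and an exact two-sided permutation test of log2 CPM gave p = 0.00433 without adjustment over members, where the smallest possible value is 0.00216. DESeq2 gave an adjusted p of 0.0779 and an edgeR fit to these 12 libraries alone gave 0.0254, so the call depends on the tool and on the libraries fitted, a choice that also changed which genes were tested. At 30°C Hp overlapped widely, at 742 to 995 CPM in Cre- and 817 to 1153 CPM in BATdKO. Hp is one of the members that fat cells also express, and how much of its count came from fat cells was not tested.

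For cold in BATdKO, the 7 members that passed only without adjustment were Fgb, Serpinc1, Fga, Cyp2e1, Cps1, Ahsg and Mup3, with log2 differences from 0.18 for Ahsg to 0.39 for Cyp2e1. Over all genes 17.2% had an unadjusted edgeR p under 0.05 in this contrast, so 7 of 42 members is no excess. Cyp2e1 ranged from 325 to 965 CPM at 30°C (median 701) and from 727 to 1254 CPM at 8°C (median 863), a log2 difference of 0.39 (SE 0.17, edgeR adjusted p = 0.24, exact permutation p = 0.0887). Fgb ranged from 1416 to 2266 CPM at 30°C (median 1941) and from 2021 to 2705 CPM at 8°C (median 2201), a log2 difference of 0.25 (SE 0.10, edgeR adjusted p = 0.186, exact permutation p = 0.0411). The groups overlapped for both. The lowest value of both came from BATdKO 30C mouse 6 and the highest from BATdKO 8C mouse 6. Without BATdKO 30C mouse 4 these 2 genes passed the threshold (edgeR adjusted p = 0.0944 for Cyp2e1 and 0.0948 for Fgb). In that fit the count called over all genes was also higher, at 1069 against 883 with all libraries. Without BATdKO 30C mouse 6 the log2 differences were 0.23 (edgeR adjusted p = 0.44) for Cyp2e1 and 0.17 (edgeR adjusted p = 0.413) for Fgb, and without BATdKO 8C mouse 6 they were 0.27 (edgeR adjusted p = 0.512) and 0.19 (edgeR adjusted p = 0.412). Antithrombin, Serpinc1, had log2 differences of -0.17 (SE 0.082, edgeR adjusted p = 0.472) for genotype at 30°C and 0.25 (SE 0.12, edgeR adjusted p = 0.583) for the difference between the cold effects.

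Over all 24 libraries the listed members leaned to 2 sets, varying with Alb or with Apoa1. Within 8°C, r was above 0 in all 15 pairs of the 6 most abundant listed genes, the lowest being 0.051. Among the 6 most abundant, Mup14, Mup22, Mup13, Mup10, Alb and Mup7, Pearson's r of log2 CPM over the 24 libraries was above 0 in all 15 pairs and had an adjusted permutation p under 0.05 in 12. Pairs of Mup genes reached 0.97 to 1.00, which cannot be told apart from reads entering more than 1 row, and pairs with Alb 0.28 to 0.50. Among the 6 most abundant listed genes, the pair Apoa1 and Apoa2 had r 0.98 and rho 0.96 (permutation p = 1e-05 for both, adjusted p = 3.75e-05 over 15 pairs), and the pair Ahsg and Trf had r 0.98 and rho 0.96 (permutation p = 1e-05 for both). Alb and Apoa1 had r -0.34 (permutation p = 0.103, adjusted p = 0.118) and rho -0.26 (permutation p = 0.21). The ratio of Alb to Apoa1 counts ran from 1.05 in BATdKO 30C mouse 6 to 3.27 in Cre- 30C mouse 4.

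Of the 20 listed genes, 12 including Alb had an r with Alb above 0 and 8 had one below 0. Fabp1 (r 0.98), Cyp2e1 (0.97), Fgb (0.86), Fga (0.83), Cps1 (0.77), Serpinc1 (0.71), Ahsg (0.67) and Trf (0.56) followed Alb most closely, with Fgg (0.39), Apoh (0.24) and Ttr (0.18) behind them. The other 8 were Apoa2, Hp, Apoa1, Hpx, Serpina1a, Apoc3, Serpina3k and Ambp, at r from -0.36 to -0.22 with Alb, and those other than Apoa1 at 0.82 to 0.99 with Apoa1. Fgg, Apoh and Ttr lay between the sets, at r of 0.60, 0.70 and 0.71 with Apoa1. All 19 kept the sign of r with Alb within 30°C. Without BATdKO 30C mouse 6 the 8 negative values shrank to between -0.16 for Hp and -0.045 for Serpina3k, and that of Apoa1 was -0.11, so that the size of the negative side rests largely on this library. Within 8°C 11 of 19 kept the sign, where these 8 had r from 0.013 for Hpx to 0.165 for Ambp. The negative sign was thus measured within 30°C and not within 8°C.

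Among the listed genes, the sign of r with Alb divided with base composition. The GC content of the last 300 transcript bases was 25.0% to 46.3% in the 12 genes with r above 0 and 48.3% to 58.3% in the 8 with r below 0. Across the 19 listed genes other than Alb, r between GC content and r with Alb was -0.66, a description over genes that share libraries. The Mup genes did not follow this division. They lie between 38.3% and 46.0% GC, yet only 13 of 22 had an r with Alb above 0. At the same 42.33% GC, r with Alb was 0.71 for Mup2 and -0.55 for Mup6. In each library the dependence of log2 CPM on GC content was then fitted over 6964 genes that are no members, as a slope. This slope had r -0.67 (permutation p = 0.00049) and rho -0.74 (permutation p = 5e-05) with the log2 ratio of Alb to Apoa1 over the 24 libraries. The value was -0.67 within 30°C, -0.58 within 8°C and -0.63 without the 2 farthest libraries. BATdKO 30C mouse 6, on which the negative side of the split largely rests, had the lowest log2 ratio, 0.0759. Its slope was not extreme, at 0.0205 log2 per 10% GC. Cre- 30C mouse 3 had a slope of 0.0848 at a log2 ratio of 0.794. The relation was chosen after the split had been seen, and the part of base composition in the split was not tested. Of the listed genes with a promoter entry, 4 of 9 with r above 0 and 1 of 5 with r below 0 held GTTAAT. Alb itself, whose sign was fixed in advance, is in both the 4 and the 9. Whether these letters bear on the split was not tested.

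**Figure D4:**
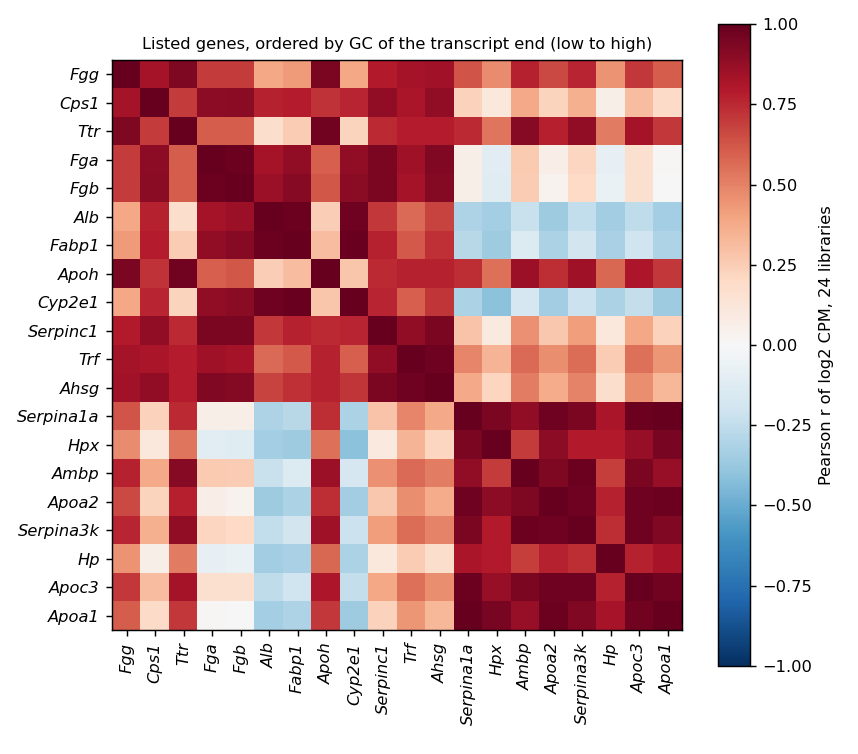
Pearson r of log2 CPM over 24 libraries between the 20 listed genes, ordered from low to high GC content of the last 300 transcript bases. The last 8 genes, from Serpina1a to Apoa1, form one block of positive r, while Alb, Fabp1 and Cyp2e1 show r below 0 with all 8 of them.

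**Figure D5:**
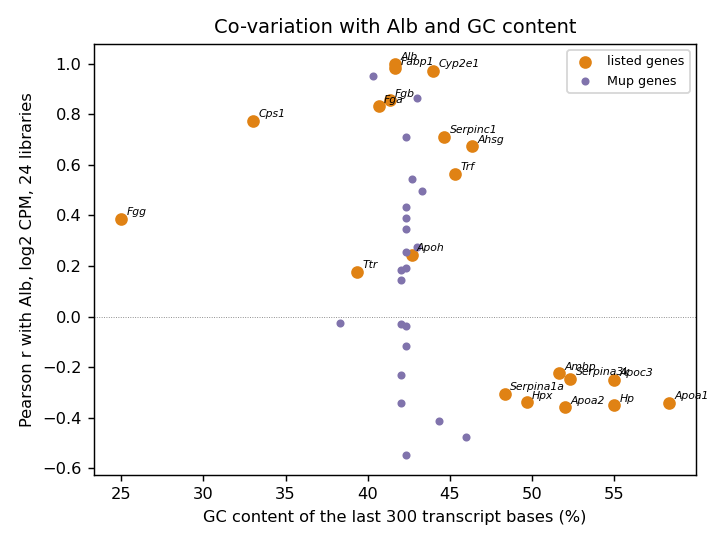
Pearson r with Alb over 24 libraries against the GC content in percent of the last 300 transcript bases for the 20 listed genes (named) and the 22 Mup genes. All listed genes at 48.3% or more lie below 0, and those at 46.3% or less lie above 0.

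The genes most like Alb that are no members, by Pearson r of log2 CPM over the 24 libraries, were Elovl5 (0.97), Fgl1 (0.97), Sephs2 (0.96), Aadac (0.96) and Pon1 (0.96). Among those most like Mup14 were 1810008I18Rik (0.95), Rbp4 (0.94), Pigr (0.94) and Rnase4 (0.93).

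A wider list of liver genes was also present. Of 71 further secreted proteins 69 were in the table and took 3.38% to 5.74% of counts. Of 36 enzymes and transporters 35 took 0.970% to 1.63%. All 12 hepatocyte transcription factors took 0.0266% to 0.0459%, with Hnf4a, which specifies hepatocytes, at 53.5 ± 6.93 CPM and Prox1 at 109 ± 14.0 CPM (SD, n = 24). The highest of the wider list were Apoe (13908 CPM, also made by macrophages and fat), Serpina1c (4641), Serpina1b (3546), Serpina1d (2285) and Serpina1e (2256 CPM on average). Of the 8 markers of other liver cells 6 were in the table, with the Kupffer cell gene Clec4f at 21.7 ± 3.50 CPM and the sinusoidal endothelial gene Stab2 at 20.5 ± 2.92 CPM.

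Of the 115 genes of the wider list that were tested, 0 passed for either genotype contrast or for the difference between the cold effects, 1 rose and 1 fell with cold in Cre- (beside 9.15% of all genes called), and 4 rose with cold in BATdKO (beside 7.07%). Orm3, an orosomucoid gene of the acute phase, rose in both, by 1.17 (SE 0.20, edgeR adjusted p = 0.00039) and 1.45 (SE 0.20, edgeR adjusted p = 4.29e-05) on the log2 scale, and stood at a mean of 14.4 CPM over all 24 libraries. Igfals, which binds IGF complexes in plasma, fell by 0.29 (SE 0.10, edgeR adjusted p = 0.0956) in Cre-. In BATdKO G6pc, which releases glucose from glucose-6-phosphate, rose by 0.25 (SE 0.075, edgeR adjusted p = 0.0629), Cyp4a14, a fatty acid hydroxylase, by 0.29 (SE 0.10, edgeR adjusted p = 0.0975) and Cyp2c29, a cytochrome P450, by 0.23 (SE 0.079, edgeR adjusted p = 0.099). The wider list had median log2 differences of 0.10, -0.08, -0.08, 0.11 and 0.18 in the order genotype at 8°C, genotype at 30°C, cold in Cre-, cold in BATdKO and the difference, beside 0.00, -0.01, -0.02, 0.00 and 0.01 for all genes.

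Markers of other tissues and cells differed in how far they varied, beside a CV of 11.1% for the members' share. The 12 skeletal muscle fibre genes in the table took 0.000757% to 0.993% of counts, a CV of 248%. The brown adipocyte markers had a CV of 36.7%, the 4 red blood cell genes 16.1%, the 8 macrophage genes 16.6%, the 6 endothelial genes 12.0% and the 7 adipocyte progenitor genes 25.9%. Red blood cell genes took 0.346% to 0.575% of counts, macrophage genes 0.0175% to 0.0299%, endothelial genes 0.0150% to 0.0229% and progenitor genes 0.0107% to 0.0295%. The part of these tissues in the members' counts was not tested.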

How the data were processed

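The data were 24 QuantSeq 3′ libraries of tissue labelled brown fat. Per the methods of the study, the authors trimmed forward reads with BBDuk, aligned them with STAR to GRCm38 and summed them per gene with Rsubread. The deposited table holds raw whole-number counts for 12615 genes, and the submitters' notes also name DESeq2. Settings for reads that match several genes or for strand are not given in the sources used here, so the counts of Serpinc1, Fgg, Apoh and Ahsg, whose exons overlap a gene on the other strand, and of Trf and Serpina3k, which overlap one on the same strand, are uncertain to that extent. Symbols were matched for 12608 genes with a GENCODE table. Groups followed the labels and all 24 libraries were used.

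Counts were fitted with edgeR 4.0.16 (R 4.3.3, quasi-likelihood, TMM, filterByExpr, 12485 genes kept, all 4 groups in one fit, Benjamini-Hochberg over all genes). DESeq2 1.42.0 was an alternative. The p-values of edgeR and DESeq2 test differences between groups against the spread between mice. Permutation p-values come from reassigning libraries. Log2 CPM used a prior count of 2. Correlations used 100000 permutations. In simulated data for genotype at 8°C with 200 genes changed by 1 on the log2 scale among 12467 tested, edgeR recovered 193 and made 26 false calls. Smaller changes, such as those of the members, were not simulated. Every member is named with its level. Of the wider list the 5 highest and those past the threshold are named, and for Alb and Mup14 the 5 most alike genes, of which 1 is not reported here. The members, lists and tests were chosen with earlier results of these data known. The labels were followed where the paper differs, which gives a shorter stay at 8°C and male mice for this experiment. The authors also removed outlier libraries that the sources used here do not name, and none was removed here.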

Additional observations from a re-analysis of the deposited data

Results flagged for a closer look

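One result stood apart from its group among 56 tested, by a rule that chance meets in about 1 in 20 groups. The 20 listed genes took 3.95% of counts in BATdKO 30C mouse 1, the lowest of its group, while the other 5 libraries lay between 4.74% and 5.10%. The same library held the most brown adipocyte counts of its group and the lowest CPM of all 24 libraries for 30 of the 42 members. The gap to the nearest library was 0.690 of the group's range.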

How the results depend on the processing

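No paired analysis was possible because the labels give the groups no shared replicate numbers. The count of members past the adjusted threshold, 0 in each contrast, was 1 (Hp) for genotype at 8°C with DESeq2 and with only the groups of the comparison, and 0 to 2 for cold in BATdKO when each of the 24 libraries was left out in turn, with 2 without BATdKO 30C replicate 4. It stayed at 0 for genotype at 30°C, cold in Cre- and the difference between the cold effects under every alternative run, which included another normalization, no filter, a mean normalized count of at least 10, a robust dispersion and, added after the data had been seen, leaving out both mice 6 at 30°C. Over all genes, the count called for genotype at 30°C, 0 with all libraries, was 90 with DESeq2, 0 to 369 over left-out libraries (369 without Cre- 30C replicate 6) and 500 without both mice 6. Over left-out libraries it was 138 (without BATdKO 8C replicate 5) to 276 for genotype at 8°C and 791 to 1343 for cold in Cre-. For cold in BATdKO it was 574 (without BATdKO 8C replicate 4) to 1069 (without BATdKO 30C replicate 4). For the difference it was 7 to 37 (without Cre- 8C replicate 2). The log2 difference of Hp at 8°C ran from 0.26 to 0.31 over left-out libraries (edgeR adjusted p 0.106 to 0.305). The median share of the members was 13.6% for the Mup genes only and 4.70% without the Mup genes, and its CV lay between 10.3% and 11.4% over left-out libraries. Of 15 pairs among the most abundant members, 10 had an adjusted p under 0.05 within 30°C and 14 within 8°C, and 10 of 15 did among listed genes.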
